A study of Equus caballus with 68 samples.

Results

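Transcripts of complement components and of their receptors were followed in equine bone marrow mononuclear cells (BMNC) through 6 genes: C1QB, C1QC, C2, CFP, C3AR1 and C5AR1. They were chosen by symbol among the 30371 genes listed. Of 10 symbols sought, 6 had a row, and C1QA, C3, CFB and CFD were not analysed here because no row carried those symbols. All 6 genes passed the filter on low values, which left 14570 genes for testing.

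BMNC were taken from 8 Thoroughbred horses (2 females and 6 geldings, aged 3 to 9 years) and were sequenced uncultured (0 hours, 8 libraries) or after culture in neat, cell-free synovial fluid of the same horse. The fluid came either from a healthy middle carpal joint (SF) or from a radiocarpal joint that had been injected with lipopolysaccharide (ISF). The joint sampled and its inflammation therefore cannot be told apart. Cultures of 7 horses were sequenced at 48 hours (all but Moon) and at 10 days (all but Flash), and cultures of all 8 at 96 hours and 6 days. Each combination of horse, fluid and time was 1 well and 1 library, and the 0 hour libraries served both fluids.

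Complement is a cascade of plasma and tissue proteins that tags microbes and dying cells and calls in phagocytes. Most of its proteins come from the liver, but macrophages are a main source of C1q, the molecule that recognises the target in the classical pathway, and it is used as a marker of tissue macrophages. Downstream of C1q, C2 is cut to form part of the classical convertase, and properdin, encoded by CFP, stabilises the convertase of the alternative pathway. The small fragments C3a and C5a released along the way act through the receptors C3AR1 and C5AR1 on myeloid cells, and the synovial fluid that bathed these cultures can itself carry complement proteins that RNA does not show.

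Reads on genes, recovered from the steps of the deposited values, numbered 15653444 to 35971677 per library, and no complement gene of the 6 rested on fewer than 15 reads in any library. Levels are in GeTMM, reads per gene length scaled between libraries, so that genes can be set side by side; log2 fold changes are on log2(GeTMM + 1) and are given ± SE. A gene was called at a false discovery rate (FDR) under 0.05 in limma. The SF library of Moon at 6 days stood apart, with GeTMM values that added up to 2321940 against 817795 to 1458340 in the other libraries. By the 200 genes that differed most between horses, 66 of 68 libraries lay closest to the horse of their label, whereas 2 ISF libraries of 96 hours, labelled Dealings and Dreamer, each lay closest to the horse of the other. The marker genes matched BMNC that turned macrophage-rich: the mean log2(GeTMM + 1) of 7 macrophage genes lay between 3.65 and 4.61 before culture and, at 10 days, between 10.5 and 11.5 in either fluid, while 6 genes of neutrophil precursors went from a median of 10.2 to 3.90 in SF and 1.95 in ISF. Genes of fibroblasts and other stromal cells (COL1A1, COL1A2, COL3A1, DCN and LUM) averaged over 2 in 10 libraries. In these bulk samples, fewer cells of a type and less RNA per cell cannot be told apart.

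**Figure D1:**
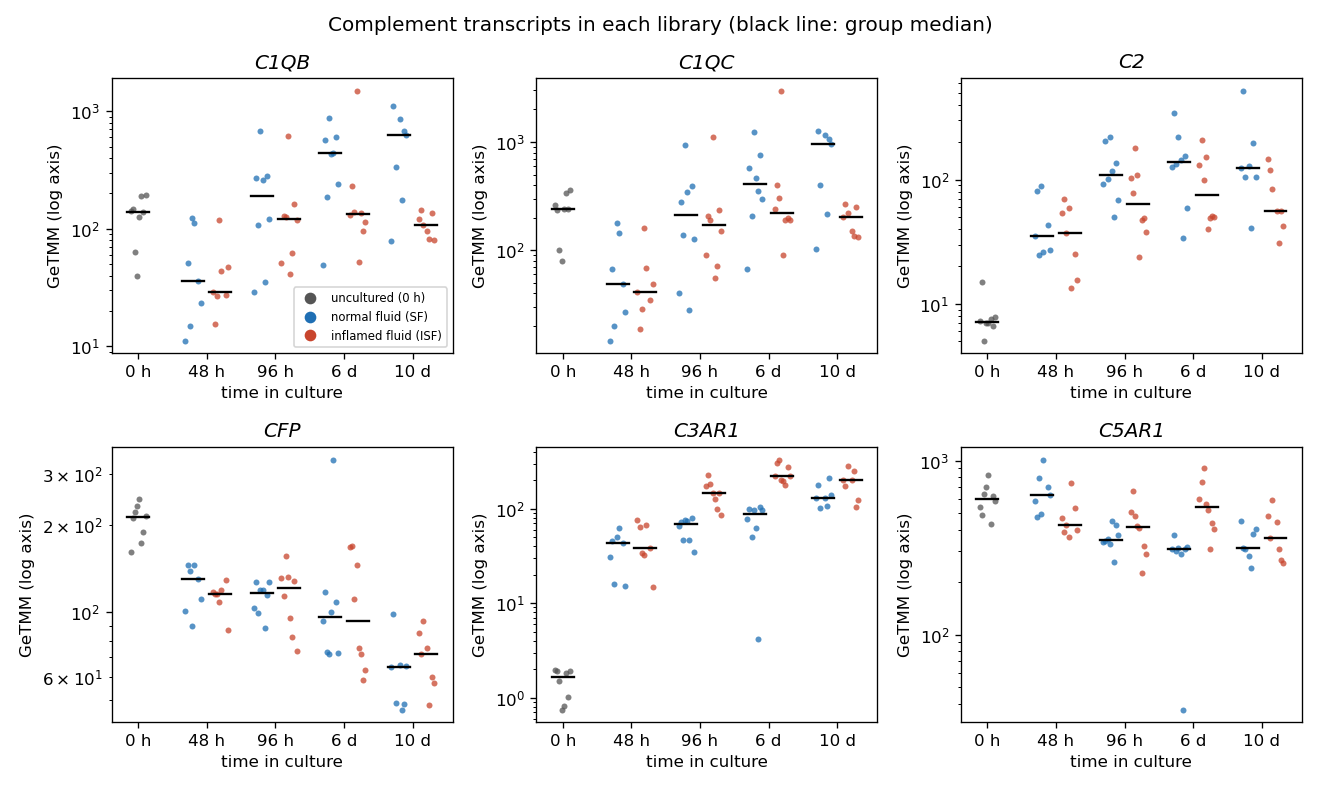
Levels of the 6 complement genes in each library (GeTMM, log axis) against time in culture, with 0 hours in grey, SF in blue and ISF in red; a point is 1 horse and the black line is the group median. C3AR1 and C2 stood higher in culture than at 0 hours, CFP lower, and the C1q genes dipped at 48 hours; the SF library of Moon at 6 days is the isolated point for CFP, C3AR1 and C5AR1.

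C1QB (ENSECAG00000019868) and C1QC (ENSECAG00000020325) encode the B and C chains of C1q. They lie next to each other in the RefSeq annotation of the horse assembly TB-T2T, with C1QA beyond 1 further gene. Uncultured BMNC already carried both: C1QB ranged from 39.5 through a median of 140 to 192 GeTMM, and C1QC from 79.9 through 241 to 359. After 48 hours C1QB was at 11.2, 35.9 and 123 GeTMM (lowest, median and highest) in SF and at 15.4, 29.2 and 118 in ISF. The groups overlapped: Flash had the lowest level of all horses at 0 hours and the highest in both fluids at 48 hours, whereas the other 6 horses were lower at 48 hours than at 0 hours in both fluids. Across the first 48 hours, C1QB fell by 1.60 ± 0.60 in SF (FDR 0.0246) and by 1.65 ± 0.60 in ISF (FDR 0.0175), and C1QC by 2.05 ± 0.63 (FDR 0.00613) and 2.15 ± 0.63 (FDR 0.00326). The fall of C1QB missed the threshold without Catnip, Dreamer, Ollie or RimRun in SF (FDR 0.0616 to 0.102), and without Dealings (0.0788) or Ollie (0.0545) in ISF. At 48 hours the log2 fold change of ISF over SF was -0.048 ± 0.62 for C1QB and -0.10 ± 0.66 for C1QC, neither called.

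Both C1q genes were higher again at 96 hours. In SF all 7 horses were above their 48 hour level for both genes, with C1QB up by 1.90 ± 0.60 (FDR 0.0129) and C1QC by 1.78 ± 0.63 (FDR 0.0286). In ISF 6 of 7 horses were, with C1QC up by 1.83 ± 0.63 (FDR 0.0328), while the difference of C1QB, 1.61 ± 0.60 (FDR 0.0513), was not called. It stayed uncalled under 10 of the 17 alternatives and was called under the others, among them horse as a block (1.69, FDR 0.00695). The block kept the labels of the 2 ISF libraries of 96 hours that were in doubt. The ISF call of C1QC was lost without these 2 libraries (1.74, FDR 0.0863), and without Dealings, Dreamer, Ollie or RimRun. Both libraries belong to the same group, so an exchange of their labels would leave the main fit, without a term for horse, unchanged. In SF, C1QC was not called without Dealings, Dreamer, Ollie or RimRun (FDR 0.0686 to 0.107), nor without the libraries rich in stromal genes (FDR 0.0602), and C1QB was not called without Dreamer or Ollie (FDR 0.0593 and 0.0586).

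At the later times C1QB was lower in ISF than in SF in most horses, with a wide spread between horses. C1QB levels in SF were 49.5, 437 and 869 GeTMM at 6 days and 79.0, 629 and 1114 at 10 days. In ISF they were 51.9, 134 and 1487 at 6 days and 80.2, 108 and 145 at 10 days. The 1487 GeTMM belonged to Flash, and the next library of that group held 231. The difference of ISF over SF was -0.35 ± 0.58 at 96 hours (FDR 0.787) and -1.001 ± 0.58 at 6 days (FDR 0.196), and that of C1QC -0.054 ± 0.61 (FDR 0.975) and -0.34 ± 0.61 (FDR 0.729). At 10 days, 6 of the 7 SF libraries lay above every ISF library, while Catnip was lowest in SF and was the only horse with more C1QB in ISF than in SF. C1QB was lower in ISF than in SF at 10 days, with a log2 fold change of -1.92 ± 0.62 (FDR 0.0204), the only one of the 6 genes called at this time, against 20.8% of all tested genes called in either direction. C1QC had levels of 102, 963 and 1259 GeTMM in SF and 131, 204 and 268 in ISF, also lower in ISF in 6 of 7 horses, at a log2 fold change of -1.53 ± 0.66 that was not called (FDR 0.0876). It passed with horse as a block (FDR 0.0208), in a fit of the 10 day groups alone (FDR 0.0497), and without Catnip (FDR 0.0363). It also passed without Flash (FDR 0.0291), which had no 10 day library, so that only the spread shared by all groups changed and not the difference.

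At 10 days the stromal genes, like C1q, had a higher median in SF than in ISF, and their part in the C1q difference was not tested. The stromal list averaged 0.10, 2.59 and 9.39 (lowest, median and highest) in SF at 10 days and 0.03, 0.14 and 3.38 in ISF. The 4 SF libraries above a mean of 2 held 334 (Dreamer), 629 (RimRun), 851 (Lurie) and 1114 (Dealings) GeTMM of C1QB, and the other 3 held 79.0 (Catnip), 176 (Moon) and 673 (Ollie). The ISF libraries above 2, those of Moon at 10 days and Ollie at 6 days, held 82.3 and 94.9 GeTMM. Without the 10 libraries above 2, which left 3 SF and 6 ISF libraries at this time, the difference was -0.91 (FDR 0.581). It was also not called without Dealings, Lurie, Ollie or RimRun (FDR 0.0605 to 0.0878). The 2 highest C1QB libraries of all, those of Flash and Dealings, had stromal means of 0.17 (ISF, 6 days) and 4.52 (SF, 10 days).

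**Figure D2:**
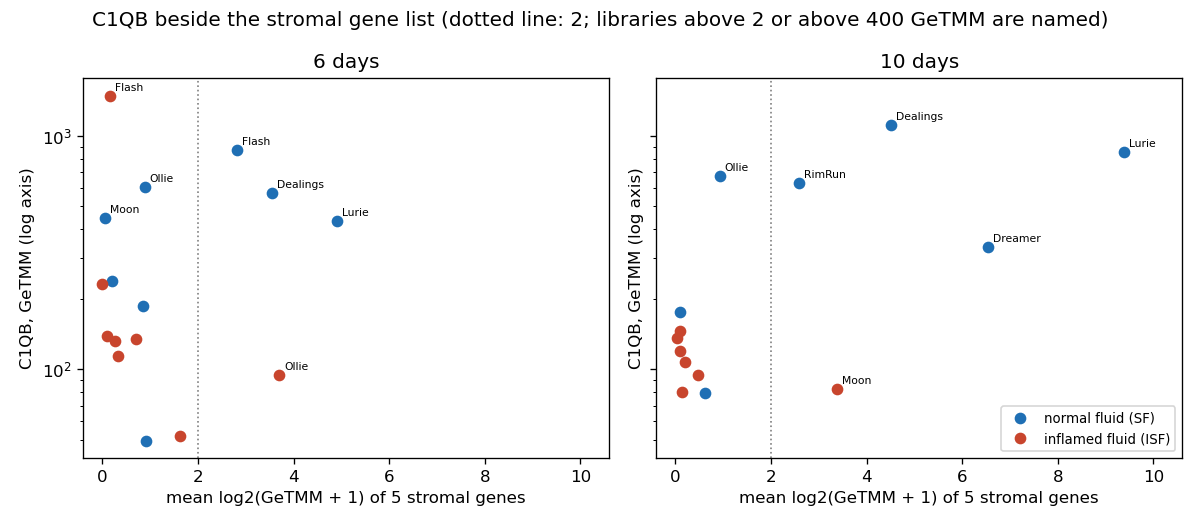
C1QB level (GeTMM, log axis) against the mean log2(GeTMM + 1) of 5 stromal genes at 6 days (left) and 10 days (right), with SF in blue and ISF in red and 1 point per horse. At 10 days, 4 SF libraries and 1 ISF library lie right of the dotted line at 2, and the SF library of Ollie is high in C1QB (673 GeTMM) left of it.

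Over the whole course the group means of C1q ended above their start in SF and near it in ISF. From 0 hours to 10 days, C1QB rose by 1.80 ± 0.60 in SF (FDR 0.00686) and C1QC by 1.38 ± 0.63 (FDR 0.0483), while in ISF they stood at -0.12 ± 0.60 and -0.15 ± 0.63. Flash, the lowest horse at 0 hours, had no 10 day library. In the 7 horses with both times the mean changes were 1.58 for C1QB and 1.18 for C1QC in SF, with 5 horses above their start for each gene. In ISF they were -0.34 for C1QB, with 6 of 7 horses below their start, and -0.35 for C1QC, with 4 of 7 below. Neither SF call held without the stromal-rich libraries (0.85, FDR 0.363, and 0.47, FDR 0.653), and that of C1QC also failed under a further 10 of the 17 alternatives. In the order of its 9 group means, C1QB had its highest levels in SF at 10 and 6 days and its lowest at 48 hours in either fluid. The only step in that order larger than the SD of both neighbours was the 1.48 between ISF at 10 days and SF at 48 hours.

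The balance of the 2 chains also differed between the fluids, which is given as a description without a test. C1QC over C1QB was 1.58, 1.80 and 2.02 at 0 hours (lowest, median and highest) and had come down to medians of 1.30 in SF and 1.28 in ISF at 48 hours. It stayed at medians of 1.31, 1.18 and 1.30 in SF at 96 hours, 6 days and 10 days, but went back up to 1.47, 1.79 and 1.69 in ISF. The ratio was higher in ISF than in SF in 2 of 7 horses at 48 hours, and in 8 of 8, 8 of 8 and 7 of 7 horses at the later times.

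**Figure D3:**
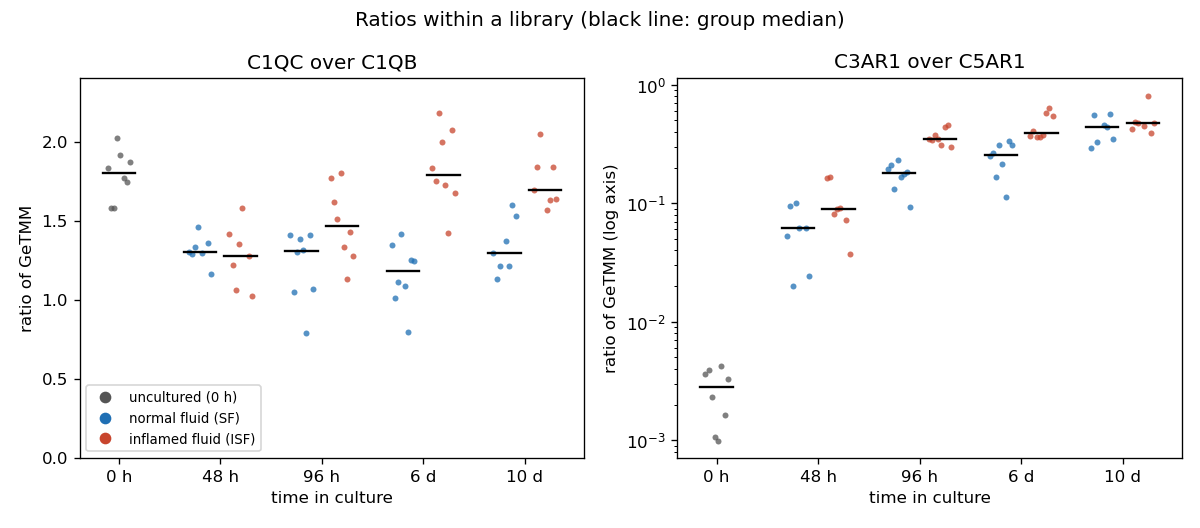
Ratios of GeTMM within each library against time in culture, C1QC over C1QB on the left (linear axis from 0) and C3AR1 over C5AR1 on the right (log axis); grey is 0 hours, blue SF and red ISF, and the black line is the group median. At 6 days every ISF library has a higher C1QC to C1QB ratio (1.42 to 2.18) than any SF library (at most 1.42, before rounding below the lowest ISF value).

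C2 (ENSECAG00000004709), the protease that joins C4b to make the classical convertase, had the second lowest mean of the 6 genes before culture and was higher in culture in all horses. Its 0 hour levels were 5.06, 7.16 and 15.0 GeTMM, where the 15.0 belonged to Dealings. They were 24.7, 35.1 and 89.2 at 48 hours in SF and 13.4, 37.5 and 69.7 in ISF, and every horse was above its own 0 hour level in each of the 8 cultured groups, although the ISF library of Lurie at 48 hours, at 13.4, lay below the highest 0 hour library. C2 rose by 2.29 ± 0.43 over these 48 hours in SF (FDR 1.17e-05) and by 2.00 ± 0.43 in ISF (FDR 8.64e-05), and to 10 days by 3.96 ± 0.43 (FDR 3.05e-12) and 2.98 ± 0.43 (FDR 1.07e-08).

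A further step in C2 lay between 48 and 96 hours. In SF the rise was 1.41 ± 0.43 (FDR 0.0101), to levels of 49.6, 110 and 219 GeTMM. In ISF the difference was 0.95 ± 0.43 (FDR 0.119), called with horse as a block (1.10, FDR 0.00176), to levels of 23.7, 64.0 and 179. That block kept the doubtful labels of the 96 hour ISF libraries of Dealings and Dreamer. All 7 horses were higher at 96 than at 48 hours in both fluids.

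At 48 hours the log2 fold change of C2 between the fluids was -0.29 ± 0.45 (FDR 0.839), and at the later times it was lower in ISF in most horses. SF and ISF held 40.5, 125 and 517 against 30.7, 56.3 and 147 GeTMM at 10 days, and Dealings was the SF library at 517. ISF was below SF in 6 of 8 horses at 96 hours and at 6 days, and in 6 of 7 at 10 days, with Catnip on the other side each time. The log2 fold changes were -0.75 ± 0.42 at 96 hours (FDR 0.273), -0.59 ± 0.42 at 6 days (FDR 0.302) and -0.98 ± 0.45 at 10 days (FDR 0.112). With horse as a block the first (FDR 0.0395) and the last (FDR 0.00643) passed the threshold. At 96 hours, 1 of the 6 horses without a doubtful label had more C2 in ISF.

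CFP (ENSECAG00000017644), properdin, is stored by neutrophils and made by monocytes, and it fell in culture in both fluids. It ran from 161 through 213 to 246 GeTMM at 0 hours. At 48 hours it was at 89.4, 130 and 145 in SF and 87.1, 115 and 129 in ISF, so that neither cultured group overlapped the uncultured one. The fall was 0.75 ± 0.21 in SF (FDR 0.00267) and 0.86 ± 0.21 in ISF (FDR 0.000493), and by 10 days it amounted to 1.74 ± 0.21 (FDR 9.51e-11) and 1.56 ± 0.21 (FDR 1.67e-09). The levels at 10 days were 46.3, 64.6 and 98.5 in SF and 48.2, 71.7 and 93.7 in ISF, below 0 hours in every horse. Neutrophil precursor genes went down over the same days, and their part in this was not tested.

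CFP was not called between the fluids: the 4 log2 fold changes of ISF over SF lay between -0.11 and 0.18, each with an SE of 0.20 or 0.22, and 2 to 5 horses per time had the higher level in ISF. The SF library of Moon at 6 days was at 334 GeTMM, against 118 in the next library of its group. In SF the fall from 6 to 10 days of 0.79 ± 0.21 (FDR 0.0216) was not called without this library (-0.55, FDR 0.0936), nor without Lurie or Ollie or the stromal-rich libraries (FDR 0.0563, 0.0989 and 0.0594), nor in a fit of those groups alone (FDR 0.358).

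C3AR1 (ENSECAG00000003106), the receptor of C3a, made the steepest change of the 6 genes. In uncultured BMNC it lay at 0.75, 1.65 and 1.98 GeTMM, which rested on 15 to 67 reads, and 79.5% of the tested genes had a higher mean. By 48 hours its levels were 15.3, 43.6 and 62.5 in SF and 14.9, 38.2 and 75.9 in ISF, and by 10 days they were 102, 131 and 213 in SF and 103, 200 and 284 in ISF. No cultured library overlapped the uncultured ones. The rise to 48 hours was 3.84 ± 0.35 in SF (FDR 2.63e-14) and 4.14 ± 0.35 in ISF (FDR 1.09e-15), and to 10 days 5.85 ± 0.35 (FDR 1.17e-22) and 6.24 ± 0.35 (FDR 3.69e-24). At 10 days only 6.74% of the genes in SF and 5.45% in ISF had a higher mean. Macrophage genes rose over the same interval, and their part in the rise was not tested.

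Between the fluids C3AR1 differed at the middle times, and at 48 hours the difference was 0.30 ± 0.37 (FDR 0.787). From 48 to 96 hours C3AR1 rose by 1.76 ± 0.35 in ISF (FDR 0.000168), and in SF the difference was 0.81 ± 0.35 (FDR 0.0810). The SF difference stayed uncalled under 13 of the 17 alternatives and was called under the others, among them horse as a block (FDR 0.0300). At 96 hours the levels were 34.7, 69.0 and 79.1 GeTMM in SF and 86.5, 146 and 227 in ISF, so the groups did not overlap and all 8 horses were higher in ISF. The difference was 1.24 ± 0.34 (FDR 0.0111), the only call among the 6 genes, against 10.5% of all tested genes. It was 1.08 (FDR 0.0682) without the ISF libraries labelled Dealings and Dreamer, with all 6 remaining horses higher in ISF, and 1.14 (FDR 0.0572) without the horse Dreamer. The main fit held no term for horse, so an exchange of those 2 labels would leave the 1.24 and its FDR unchanged. Leaving the libraries out also leaves fewer samples.

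At 6 days the gap in C3AR1 was widest. SF held 4.17, 87.2 and 103 GeTMM and ISF 179, 221 and 328, again without overlap and with all 8 horses higher in ISF, at 2.02 ± 0.34 (FDR 4.76e-06). The 4.17 GeTMM, 62 reads, came from the SF library of Moon. Without it the difference was 1.52 (FDR 4.11e-06) and the lowest SF library held 50.2 GeTMM. By 10 days the groups overlapped, 4 of 7 horses were higher in ISF and the difference was 0.39 ± 0.37 (FDR 0.507). In SF, C3AR1 rose by 1.26 ± 0.35 between 6 and 10 days (FDR 0.0280), a call that was lost without Moon at 6 days (0.76, FDR 0.113), without Dreamer, Lurie or Ollie (FDR 0.0521 to 0.0851), without the stromal-rich libraries (FDR 0.0981) and in a fit of those groups alone (FDR 0.449), whereas in ISF the log2 fold change was -0.38 ± 0.35 (FDR 0.609).

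**Figure D4:**
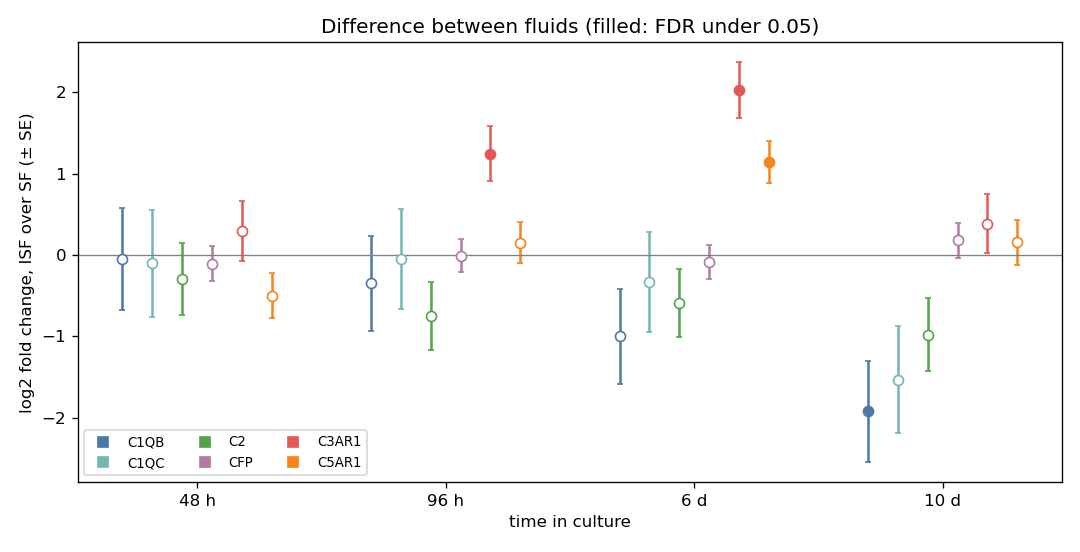
Log2 fold change of ISF over SF, ± SE, for the 6 complement genes at 48 hours, 96 hours, 6 days and 10 days, with filled points at an FDR under 0.05. C3AR1 is called at 96 hours (1.24) and 6 days (2.02), C5AR1 at 6 days (1.14) and C1QB, below 0, at 10 days (-1.92).

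C5AR1 (ENSECAG00000006153), the C5a receptor through which neutrophils and monocytes are attracted, was abundant from the start. Its 0 hour levels were 429, 603 and 825 GeTMM, and 1.77% of the tested genes had a higher mean. Over the first 48 hours its log2 fold change was 0.13 ± 0.27 in SF (FDR 0.720) and -0.37 ± 0.27 in ISF (FDR 0.251), where it was lower in all 7 horses. At 48 hours it stood at 476, 630 and 1008 in SF and 363, 424 and 739 in ISF, lower in ISF in all 7 horses, at a log2 fold change of -0.50 ± 0.27 (FDR 0.415). It was the only one of the 6 genes with the same direction in all horses at 48 hours, when limma called none of the 6 (none at an unadjusted p under 0.05, none with voom on recovered reads), against 1.68% of all tested genes. Neither of these fits held a term for horse. Within horses the difference of C5AR1 averaged -0.50 with an SD of 0.21. Its FDR lay between 0.0815 and 0.713 over the main fit and all alternatives, the horse block among them. In SF, C5AR1 then fell by 0.87 ± 0.27 between 48 and 96 hours (FDR 0.00970), in all 7 horses, while the log2 fold change in ISF was -0.22 ± 0.27 (FDR 0.640). At 96 hours that of ISF over SF was 0.15 ± 0.26 (FDR 0.786).

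At 6 days C5AR1 was higher in ISF in all 8 horses. SF held 37.0, 309 and 375 GeTMM and ISF 310, 540 and 909, and the ISF library of Moon, at 310, was the only 1 of 8 below the highest SF library. The difference was 1.14 ± 0.26 (FDR 0.000441), so that 2 of the 6 genes were called at 6 days, against 30.2% of all tested genes. Without the SF library of Moon it was 0.76 (FDR 0.00123), and in a fit of the 6 day groups alone it was not called (FDR 0.0654). At 10 days SF and ISF held 242, 316 and 447 against 258, 360 and 594 GeTMM (0.15 ± 0.27, FDR 0.753). Relative to 0 hours C5AR1 was then lower in all 7 horses in both fluids, at -0.83 ± 0.27 in SF (FDR 0.00486, or 0.0614 without the stromal-rich libraries) and -0.67 ± 0.27 in ISF (FDR 0.0197, or 0.0723 to 0.0774 without RimRun or Ollie).

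The levels of the 2 anaphylatoxin receptors came closer to each other. C3AR1 over C5AR1 was 0.000989, 0.00281 and 0.00422 at 0 hours. In SF it had medians of 0.0616, 0.180, 0.257 and 0.444 at 48 hours, 96 hours, 6 days and 10 days, and in ISF 0.0891, 0.346, 0.388 and 0.475. ISF was the higher in 6 of 7 horses at 48 hours, in 8 of 8 at 96 hours and at 6 days, and in 4 of 7 at 10 days. The C5 transcript, which encodes the source of C5a, was at or below 0.268 GeTMM in every library and did not pass the filter on low values.

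Set beside all tested genes, most calls of the 6 lay in the first 48 hours and in the net changes. In each fluid 5 of 6 were called over that interval, namely C2 and C3AR1 (higher) and C1QB, C1QC and CFP (lower), against 45.4% of all tested genes in SF and 52.7% in ISF. From 48 to 96 hours 4 of 6 were called in SF (27.3% of all genes) and 2 of 6 in ISF (19% of all genes), and CFP was at -0.12 ± 0.21 and -0.019 ± 0.21. None was called in either fluid from 96 hours to 6 days (2.05% in SF and 6.38% in ISF), by limma or by voom on recovered reads; 2 in SF and 1 in ISF had an unadjusted p under 0.05, and the log2 fold changes of the 6 lay between -0.55 (C5AR1) and 1.18 (C1QB) in SF and between -0.16 (CFP) and 0.83 (C1QC) in ISF. C1QB and C1QC were higher at 6 days than at 96 hours in all 8 horses in SF, and C3AR1 and C5AR1 in all 8 in ISF. Without the 6 day SF culture of Moon, which is not part of the ISF comparison, C3AR1 in ISF was called over this interval (0.72, FDR 0.0460). Between 6 and 10 days 2 were called in SF (4.78%) and 0 in ISF (10.5%), where 1 had an unadjusted p under 0.05 and voom called 0. In ISF the log2 fold changes of all 6 from 6 to 10 days were below 0, from -0.30 ± 0.43 for C2 to -0.66 ± 0.63 for C1QC, with CFP at -0.53 ± 0.21 (FDR 0.106) and C5AR1, lower in all 7 horses, at -0.52 ± 0.27 (FDR 0.239). Flash, by far the highest in C1q in ISF at 6 days, had no 10 day library. Over the 7 horses with both times, the mean change was -0.18 for C1QC, -0.14 for C1QB and -0.17 for C2. Of these horses 5, 5 and 4 were lower at 10 days. In SF the 4 genes not called lay between 0.097 (C2) and 0.54 (C1QC). Of the net changes to 10 days, 6 of 6 were called in SF (69.6%) and 4 of 6 in ISF (74.5%). Both fluids were set against the same 0 hour libraries. These shares of all tested genes themselves depended on single libraries, in part through the estimate of spread that all groups share in 1 fit. With the 6 day SF culture of Moon left out they went to 5.00% and 16.7% between the fluids at 48 and 96 hours, to 11.5% for ISF from 96 hours to 6 days and to 2.19% for SF from 6 to 10 days. Only the last of these comparisons holds that culture, so the log2 fold changes of the others did not move. Without the 2 libraries of doubtful label, which leaves fewer samples, the share between the fluids at 96 hours was 6.18%. An exchange of their labels would not move the share of the main fit. Without the stromal-rich libraries it was 10.1% between the fluids at 10 days and 0.611% for SF from 6 to 10 days. Leaving out 1 horse at a time, the share between the fluids at 48 hours ran from 0.515% (Dreamer) to 4.95% (Moon). Moon had no 48 hour library, so without Moon the share moved only through the shared estimate of spread.

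Whether the gap between the fluids itself changed over time was tested for all genes. Limma called none of the 6 in any of the 4 tests, in which 0.0206% (48 to 96 hours), 0% (96 hours to 6 days), 0.226% (6 to 10 days) and 2.99% (48 hours to 10 days) of all tested genes were called. At an unadjusted p under 0.05 there were 0 genes for 48 to 96 hours, 1 for 96 hours to 6 days, 2 for 6 to 10 days and 1 for 48 hours to 10 days, and voom on recovered reads called 0 in each. The smallest p was that of C3AR1 from 6 to 10 days, with a difference in the gap of -1.64 ± 0.50 (unadjusted limma p 0.00175, FDR 0.119), which passed with horse as a block (FDR 0.0476) and was -1.14 (FDR 0.128) without the 6 day SF culture of Moon. C5AR1 had 0.98 ± 0.36 from 96 hours to 6 days (FDR 0.748) and -0.98 ± 0.38 from 6 to 10 days (FDR 0.205), and C1QB -1.87 ± 0.88 from 48 hours to 10 days (FDR 0.260). For C3AR1 the gap changed by 0.95 ± 0.50 from 48 to 96 hours (FDR 0.950), 0.78 ± 0.48 from 96 hours to 6 days (FDR 0.782) and 0.089 ± 0.52 from 48 hours to 10 days (FDR 0.971). C5AR1 was at 0.65 ± 0.38 from 48 to 96 hours and 0.65 ± 0.39 from 48 hours to 10 days. The other values of C1QB lay between -0.92 and -0.30. The values of C1QC lay between -1.43 and 0.047, those of C2 between -0.69 and 0.16 and those of CFP between -0.079 and 0.29. With the 6 day SF culture of Moon left out, the shares of all tested genes were 0.679% for 6 to 10 days and 6.72% for 48 hours to 10 days. The test of 48 hours to 10 days does not hold that culture, so its share moved only through the shared estimate of spread.

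**Figure D5:**
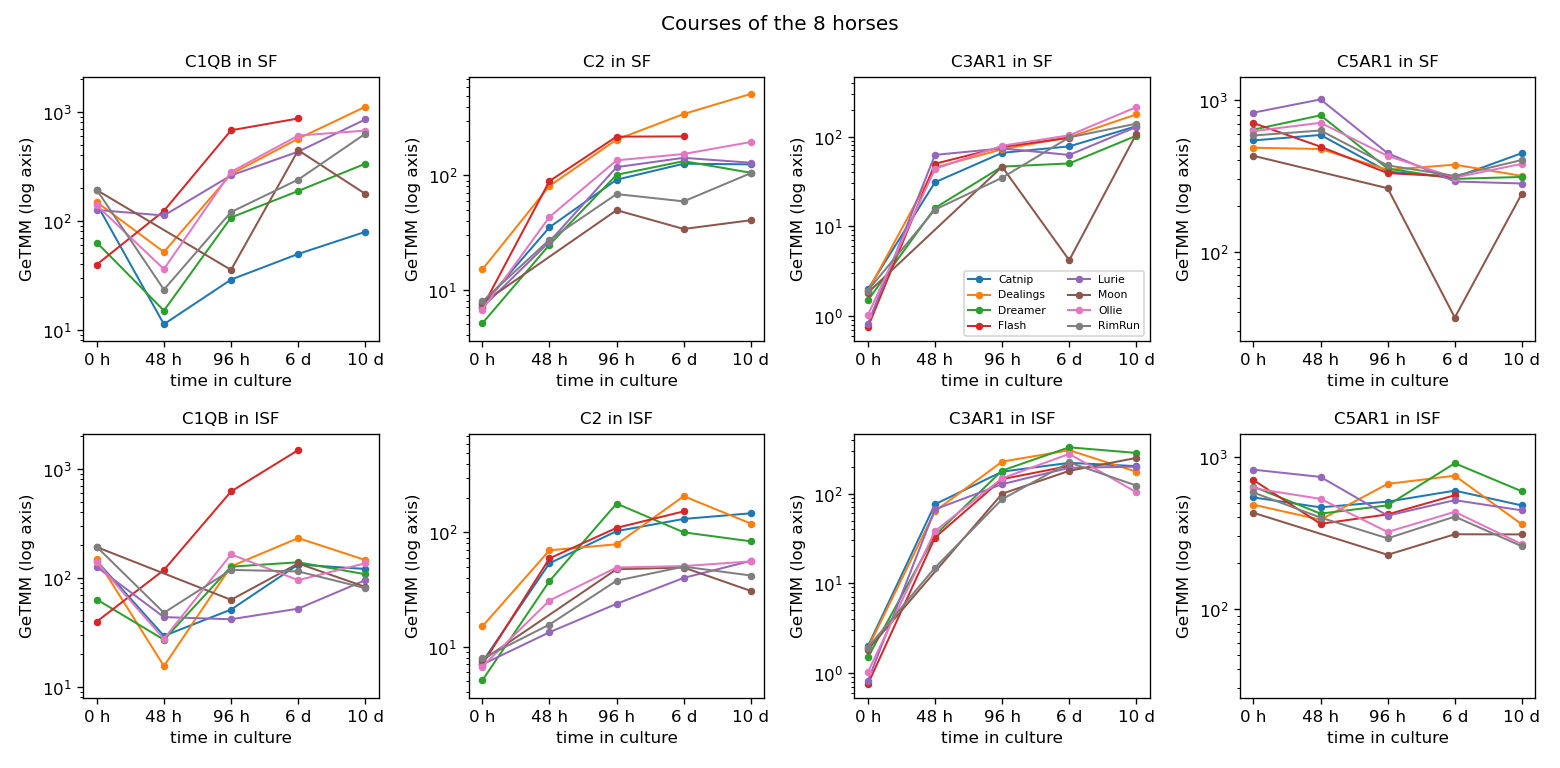
Courses of C1QB, C2, C3AR1 and C5AR1 (GeTMM, log axis) in SF (top) and ISF (bottom), 1 line per horse from 0 hours to 10 days. Flash is highest for C1QB in both fluids at 48 hours, 96 hours and 6 days, Catnip is lowest for C1QB in SF at each cultured time, and Moon drops at 6 days in SF for C3AR1 and C5AR1.

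The widest differences between horses were those of the C1q genes. As a mean deviation from the group means over its cultures, Flash was 2.11 above on the log2 scale for C1QB and 2.31 above for C1QC, over in 6 of 6 cultures, and Catnip was 1.32 and 1.22 below, over in 1 of 8. Moon was below its group in all 6 cultures for C1QC, C2 and C5AR1. Dealings was above its group in all 8 cultures for C2, by 1.09, and for CFP, by 0.27, with the 96 hour ISF library of doubtful label among them. For C2, Flash was also above in all 6 cultures (mean 0.89), and RimRun was below in all 8 (mean -0.73). The ratio of the highest to the lowest library within a group reached 33.6 for C1QC, in SF at 96 hours, and 28.6 for C1QB, in ISF at 6 days.

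Genes with the most similar course were sought among the tested genes with a symbol, by Pearson's r of log2(GeTMM + 1) over the 68 libraries, which share horses and groups. C1QB and C1QC were closest to each other (r = 0.98). Outside the 6 genes, C1QB was most like BPHL (0.74) and FCSK (0.72), and C1QC most like EPAS1 (0.72) and COLEC12 (0.72), the latter a scavenger receptor of the collectin family. The highest likeness was found for C3AR1, with GPR34 and SLC35F6 (both 0.97), and for C2, with RIN2 (0.94) and PTPRB (0.93). ARRDC1 was among the genes most like CFP (0.86), and C5AR1 was closest to OSBPL11 (0.86) and KIF3B (0.86).

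Of 44 further complement genes sought, 32 were listed and 19 passed the filter, namely all 9 receptors and binding proteins, 4 of 6 regulators, 3 of 8 genes of the early classical and lectin steps, 2 of 7 terminal components and 1 of 2 pentraxins. Between the fluids 2 of the 19 were called at 48 hours (1.68% of all tested genes) and 3 at 96 hours (10.5%), all higher in ISF. At 6 days 3 were called higher and 3 lower in ISF (30.2% of all tested genes in either direction), and at 10 days 3 higher and 5 lower (20.8%). The median log2 fold change of the 19 was between -0.42 and -0.07, beside medians of all tested genes between -0.02 and 0.

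The integrin ITGAX was higher in ISF at 3 of the 4 times. ITGAX, the alpha chain of complement receptor 4, had means of 87.3 GeTMM in SF and 253 in ISF at 96 hours, 97.9 and 471 at 6 days, and 248 and 591 at 10 days. It was higher in ISF by 1.48 ± 0.23 (FDR 3.54e-06), 2.20 ± 0.23 (FDR 2.37e-11) and 1.28 ± 0.24 (FDR 5.79e-05), and was called under each of the 17 alternatives at each of these times. CR2, complement receptor 2, which is found on B cells and follicular dendritic cells, was lower in ISF, with a log2 fold change of -1.37 ± 0.47 at 6 days (FDR 0.0205, not called under 9 of 17 alternatives), and at 10 days the log2 fold change was -2.34 ± 0.50 (FDR 0.000376). The 4 B cell genes had medians of 3.23 in SF and 1.25 in ISF at 10 days, and their part in the CR2 difference was not tested.

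Among the soluble proteins, the protease C1R and the inhibitors SERPING1 and CLU were lower in ISF at 10 days. Their differences were -1.61 ± 0.48 (FDR 0.0111), -1.70 ± 0.36 (FDR 0.000349) and -2.72 ± 0.69 (FDR 0.00255). CLU ran from 0.37 through 3.22 to 652 GeTMM in SF, against 0.23, 0.49 and 3.34 in ISF. SERPING1 was not called under 2 and C1R under 5 of the 17 alternatives. Without the stromal-rich libraries, C1R (-0.65, FDR 0.501) and CLU (-0.55, FDR 0.506) were not called.

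From 0 hours to 10 days, 11 of the 19 genes were called higher and 5 lower in SF, against 69.6% of all tested genes called in either direction, and 8 higher and 6 lower in ISF, against 74.5%. The largest falls were those of C5AR2, the second C5a receptor, from a mean of 35.9 GeTMM to 3.51 in SF (log2 fold change -3.12 ± 0.26, FDR 2.46e-16) and 1.73 in ISF (-3.76 ± 0.26, FDR 6.22e-20), and of ITGAM, the alpha chain of complement receptor 3, from 684 to 87.2 (-3.22 ± 0.36, FDR 5.47e-12) and 73.0 (-3.46 ± 0.36, FDR 3.12e-13). Neutrophil precursor genes also went down over this interval, and their part in these falls was not tested. VSIG4, a macrophage receptor for C3b, rose from 27.1 to 229 in SF (3.05 ± 0.54, FDR 1.55e-06) and 129 in ISF (1.95 ± 0.54, FDR 0.00109), and CD93, once described as a C1q receptor, rose from 4.99 to 37.2 in SF (2.66 ± 0.19, FDR 4.26e-19) and 32.4 in ISF (2.43 ± 0.19, FDR 1.08e-17). ITGAX rose by 1.21 ± 0.23 in SF (FDR 7.04e-06) and by 2.49 ± 0.23 in ISF (FDR 8.06e-15), and MASP2, a protease of the lectin pathway, fell by 1.48 ± 0.17 in SF (FDR 1.15e-11) and by 1.99 ± 0.17 in ISF (FDR 1.41e-16). CR2 fell in ISF by 2.50 ± 0.48 (FDR 6.24e-06) and was at -0.16 ± 0.48 in SF (FDR 0.777). C1R rose by 2.20 ± 0.47 (FDR 3.43e-05) and CLU by 2.82 ± 0.66 (FDR 0.000166) in SF, the latter not without the stromal-rich libraries (0.44, FDR 0.381), and in ISF they were at 0.58 ± 0.47 (FDR 0.252) and 0.10 ± 0.66 (FDR 0.898).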

How the data were processed

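BMNC of 8 horses gave 68 RNA-seq libraries. The authors used TrimGalore 0.4.3 for trimming, STAR 2.7.2a for alignment against the EquCab 3.0 genome, and the gene models of Ensembl 104 for counting. The deposited table holds GeTMM values made by the authors, a unit that resembles RPKM but is scaled by the TMM factors of edgeR; counts were not part of it, and no batch correction is described. Members and gene lists were chosen with earlier results of these data known.

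Values were taken as log2(GeTMM + 1), and 14570 genes at 0.5 GeTMM or more in at least 7 libraries entered limma (version 3.58.1, R 4.3.3; lmFit, then eBayes with a trend): 1 fit of 9 groups, no term for horse, two-sided, Benjamini-Hochberg over all tested genes of a comparison, 18 comparisons. The fit was tested on simulated data. Reads were recovered as whole numbers (within 0.02 reads) for 24065 genes, and voom on them was an alternative. The horse named in the labels pairs the libraries: the correlation of deviations between the fluids of a horse had medians of 0.207 to 0.455 per time, against -0.115 to -0.0300 between horses; the lowest value within a horse was -0.217, at 96 hours. A fit with horse as a block is given where it changes a call. It took the horse labels as given, also for the 96 hour ISF libraries of Dealings and Dreamer. All 6 members were tested in each comparison and are given by value or, where not called, in places by range; other complement genes are named at an FDR under 0.05, an absolute log2 fold change of 1 or more and a mean of 5 GeTMM or more, up to 6 per comparison, and the 2 genes most like each member, of which 1 is not reported here. Python 3.11.15 was used for summaries. Alternatives were a pseudocount of 0.1, no filter, median-of-ratios scaling, the block, fits of only the groups compared, leaving out each horse, and leaving out the libraries that stood apart.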

Additional observations from a re-analysis of the deposited data

Results flagged for a closer look

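Within the 54 sets of 7 or 8 libraries formed by 6 genes and 9 groups, a library far from the rest of its group (Dixon's test at 95%, which chance passes in about 1 of 20 groups) was found 6 times. In the ISF group at 6 days, Flash was highest for C1QB, at 1487 GeTMM against 231 in the next library, and for C1QC, at 2971 against 405. Before culture, Dealings was highest for C2, at 15.0 GeTMM against 7.87. In the SF group at 6 days, Moon was highest for CFP (334 against 118) and lowest for C3AR1 (4.17 against 50.2) and C5AR1 (37.0 against 291). In that library of Moon the neutrophil precursor genes averaged 8.14 (group median 7.38) and the macrophage genes 10.5 (group median 10.5), and C1QB was at 444 GeTMM (group median 437).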

How the results depend on the processing

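A tally took in the log2 fold changes of the 6 genes between fluids, their net changes, and other changes with an unadjusted limma p under 0.05. Of these, 1001 recomputed values kept direction and call, 56 lost the call, 22 gained it and 26 changed sign. For most of these the cause was not tested. The remaining uncalled changes were not tallied. With horse as a block, the number of genes called went to 2 (ISF versus SF at 96 hours), 3 (at 10 days), 4 (ISF, 48 to 96 hours) and 1 (change of the gap from 6 to 10 days), while the share of all tested genes called went from 10.5% to 16.7%, from 20.8% to 27.1%, from 19% to 24.0% and from 0.226% to 1.85%, and C1QB and C1QC in ISF from 0 hours to 10 days stood at 0.11 each; the block moved no other count by over 1.5 times. In fits of only the groups compared the counts were 1 at 6 days, 2 at 10 days, 1 for ISF from 96 hours to 6 days and 0 for SF from 6 to 10 days. Without filter, 1 gene was called for ISF from 48 to 96 hours. Without the 96 hour ISF cultures labelled Dealings and Dreamer, which leaves fewer samples, 0 were called between fluids at that time and 1 for ISF from 48 to 96 hours, and C5AR1 at 96 hours stood at -0.019. Without the 6 day SF culture of Moon, 1 was called for ISF from 96 hours to 6 days, 2 for ISF and 0 for SF from 6 to 10 days, and CFP at 6 days stood at 0.15. The ISF intervals do not hold that culture, so their counts moved only through the estimate of spread that all groups share. Without the stromal-rich libraries, which leaves fewer samples, 0 were called between fluids at 10 days, 0 for SF from 6 to 10 days and 3 for SF from 0 hours to 10 days, and between fluids C1QC stood at 0.047 and CFP at 0.018 at 96 hours, and C1QC at 0.28 and C2 at 0.0039 at 6 days.

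Leaving out each horse in turn, counts ranged from 0 to 1 (ISF versus SF at 96 hours), 0 to 2 (at 10 days), 1 to 3 (ISF, 48 to 96 hours), 0 to 1 (ISF, 6 to 10 days), 2 to 5 (SF, 48 to 96 hours) and 0 to 2 (SF, 6 to 10 days). In ISF from 0 to 48 hours they ranged from 4 to 6, with C5AR1 among the 6. Uncalled differences between fluids crossed 0: C1QB -0.27 to 0.22 and C1QC -0.36 to 0.18 at 48 hours, C1QC -0.25 to 0.31 and CFP -0.10 to 0.10 at 96 hours, and CFP -0.24 to 0.22 at 6 days. So did C1QB (-0.34 to 0.050) and C1QC (-0.35 to 0.044) in ISF from 0 hours to 10 days. Voom on recovered reads lost 1 call, C1QC in SF from 0 hours to 10 days (FDR 0.0512). Depth limits C3AR1 at 0 hours most, with 15 to 67 reads per library.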
